A study of Bos taurus with 20 samples.

Results

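Some array probes do not vary smoothly between animals but fall into 2 separate levels with nothing between them. The 78 probes described here had that shape across 20 arrays of bovine endometrium, the inner lining of the uterus, and they were sought outside the histocompatibility genes. They were 78 of the 36527 probes that rose well above background on 2 or more arrays (0.214%). The probes were selected on their own measured levels: the rule sorted the 20 levels of each probe and asked for a gap of more than 2.5 log2 units between neighbours, with 2 or more arrays on each side. A level is the log2 of the background-subtracted signal minus the 75th percentile of its array, so levels compare arrays for a given probe and not probes with each other. Of 89 probes with such a gap, 11 were dropped because the array calls their gene BOLA, JSP or HLA, and the 78 left carry 74 distinct names.

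The samples came from 10 female cows (Bos taurus, with no treatment or genotype named), each biopsied in 2 periods after calving, giving 10 early arrays from days 42 to 86 and 10 late arrays from days 343 to 436. Both biopsies were taken 7 days after oestrus from the uterine horn that faced the ovary carrying the corpus luteum, so every array comes from the luteal phase of a parous cow. The comparison asks what differs in the endometrium between the periods. Because each cow was sampled in both, it also shows whether a probe that is high in a cow is still high in that cow in the later period. The biopsy is a mixed tissue: all 9 stroma markers and all 7 epithelial markers looked for were detected. In such tissue fewer cells of a type and less RNA per cell cannot be told apart.

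The label of the set did not hold for every member. Through RefSeq names, 3 of the 78 probes are still histocompatibility probes: BOLA-DQB1, a class II chain that the array calls BLA-DQB, and a pair of probes of JSP.1, a class I gene that the array lists under a locus number. LOC790858 may belong with them, since another probe that the array puts under the same name also carries the accession of BOLA-DQB1. ULBP3, whose product resembles class I and is a ligand of the natural killer receptor NKG2D in humans, is a relative outside the complex. The gaps, the 2 sides and which arrays lie on each side are what the rule used, and they are given as a description with no test.

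A probe reads a transcript over 60 bases. A level that jumps between animals can reflect a transcript that is made in some cows and not in others, or a transcript that differs in the bases under the probe. An array reads both as a low signal, and they cannot be told apart from a single probe. Histocompatibility molecules present peptides to T cells and are among the most variable proteins of vertebrates. Butyrophilins, oligoadenylate synthetases, kallikreins, cytochromes P450 and olfactory receptors belong to families with many similar gene copies. The endometrium also holds immune cells, and its epithelium secretes lysozyme, mucins and salts.

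Probe sequences show how narrowly a state can be placed. The 5 pairs below are probes of the same gene or of near-identical genes, given 5′ to 3′ as designed. Positions are on the array's own bovine build (HGSC Btau_3.1), and the files do not say which exon each probe reads. The SS18 pair lies at chr24:31842819-31842878 and chr24:31843004-31843063 on the plus strand, the COX7C pair at chr7:87650659-87650718 and chr7:87650581-87650640 on the plus strand, and the ULBP3 pair at chr9:90310473-90310532 and chr9:90309680-90309739 on the minus strand. The EXOC3L4 probes lie at chr21:67926570-67926627 and chr21:67926480-67926539 on the plus strand. The ART5 probe lies at chr15:50992854-50992913 and the LOC618664 probe at chr15:50976355-50976414, both on the plus strand. Capitals mark the 4 bases at which these last 2 probes differ over the 59 bases they share.
SS18, two-state probe: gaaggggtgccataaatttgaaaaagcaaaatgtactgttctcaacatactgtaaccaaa
SS18, steady probe: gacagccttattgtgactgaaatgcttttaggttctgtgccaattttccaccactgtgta
COX7C, two-state probe: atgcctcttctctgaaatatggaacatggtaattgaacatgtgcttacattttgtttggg
COX7C, steady probe: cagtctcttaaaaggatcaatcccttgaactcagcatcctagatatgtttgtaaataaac
ULBP3, two-state probe: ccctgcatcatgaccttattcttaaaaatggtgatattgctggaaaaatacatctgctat
ULBP3, other probe with the same split: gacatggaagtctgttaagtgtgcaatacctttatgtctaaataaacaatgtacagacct
EXOC3L4, first two-state probe: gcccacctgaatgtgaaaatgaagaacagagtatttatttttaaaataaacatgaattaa
EXOC3L4, second two-state probe: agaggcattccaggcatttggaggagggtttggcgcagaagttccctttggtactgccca
ART5, two-state probe: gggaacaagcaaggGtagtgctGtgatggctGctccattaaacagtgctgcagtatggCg
LOC618664, near-identical probe: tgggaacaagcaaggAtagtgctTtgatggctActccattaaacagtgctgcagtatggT

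Most states held between the periods, and how well they held differed from probe to probe. In 33 of the 78 probes (31 names) every cow was in the same state early and late. In 4 probes 9 cows were, in 32 probes 8 cows, in 7 probes 7 cows, and both probes of CBLN2 kept their state in 6 cows. Over all 780 pairs of a probe and a cow, 683 (87.6%) were in the same state. The sides of the gaps alone set a floor under this share: with so few arrays on the smaller side no more than 223 pairs could change, and the share could not fall below 71.4%. Of those 223 possible changes 97 were seen, 49 from high to low and 48 from low to high. In every one of the 78 probes the early and the late range overlapped. That share was not taken over all probes tested, and nothing is read from it.

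The number of arrays on the smaller side separated the kinds of probe. In 52 probes only 2 arrays lay apart: in 20 probes these were the early and the late array of the same cow, and in 32 they were arrays of 2 cows, 17 times from the same period. In the 15 probes with 4 or more arrays on the smaller side, 13 kept all 10 cows in state, and the exceptions were the CBLN2 probes. Of the 19 probes with a gap over 4 log2 units, 16 kept all 10 cows in state, the exceptions being CO881657, LYZ1 and CYLC2. The median gap was 3.81 in the 33 stable probes and 2.82 in the other 45.

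**Figure D1:**
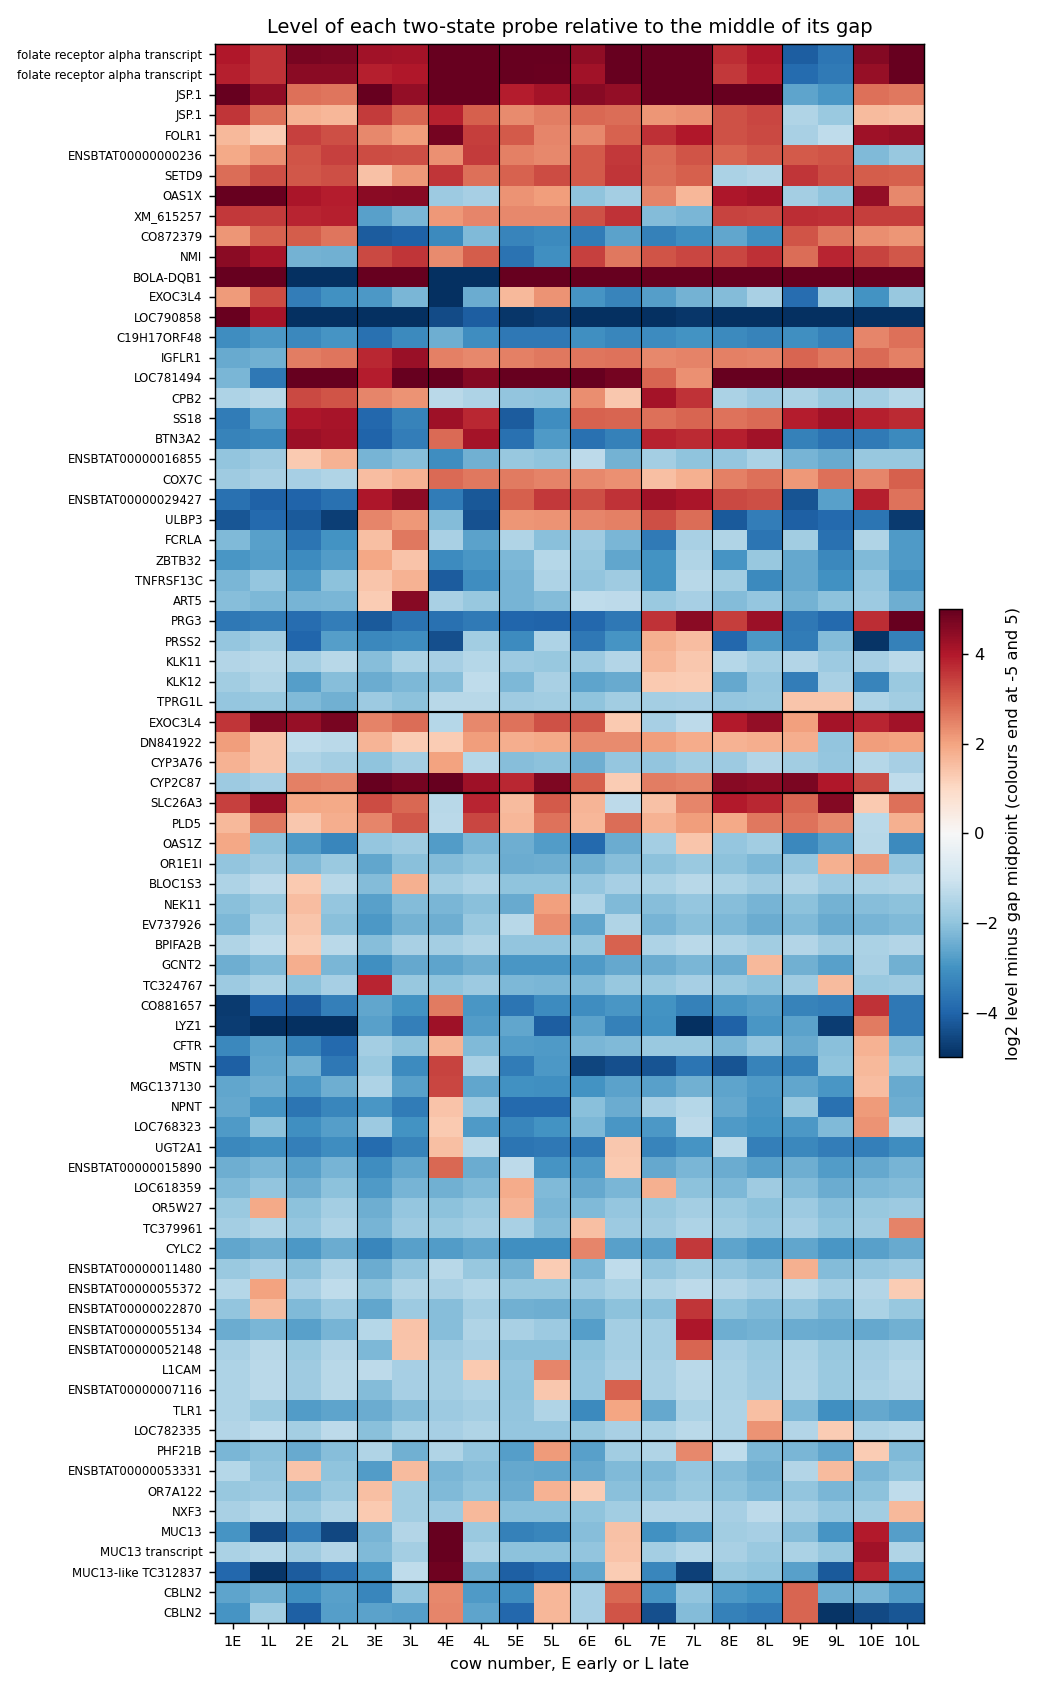
Each row is 1 of the 78 two-state probes and each column 1 array, with the early (E) and late (L) array of a cow side by side. Colour gives the log2 level minus the midpoint of the probe's gap, with colours ending at -5 and 5, and black lines part probes whose state was the same in 10, 9, 8, 7 and 6 cows. In the top 33 rows the 2 columns of every cow have the same colour side, while in the rows below single early or late arrays stand apart.

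**Figure D2:**
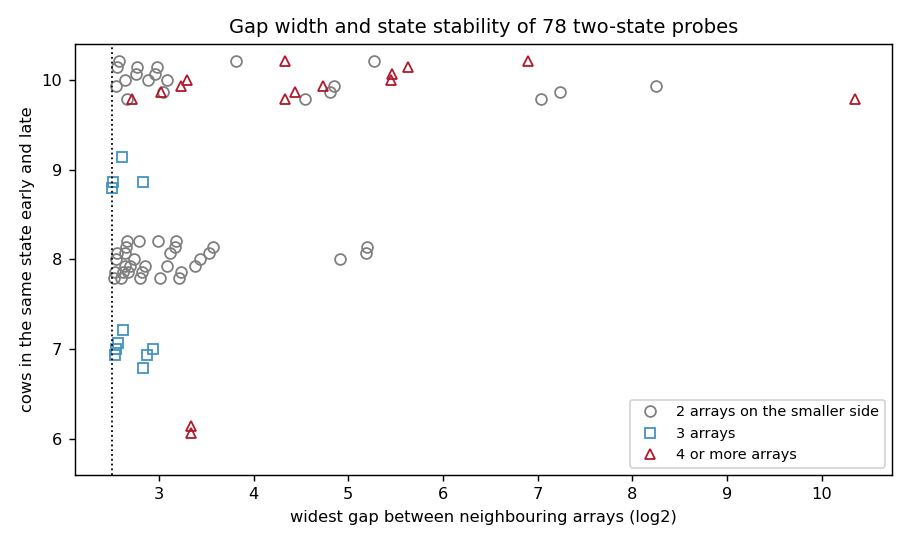
The width of each probe's gap (horizontal, log2 units, dotted line at the limit of 2.5) is set against the number of cows in the same state early and late (vertical, points spread slightly so that they can be seen). Triangles are the 15 probes with 4 or more arrays on the smaller side, of which 13 lie at 10 cows and the CBLN2 pair at 6.

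By cow, between 58 and 75 of the 78 probes were in the same state in both periods (68.3 ± 5.66, SD, n = 10 cows). Cow 8 held 75, cow 1 held 74 and cow 2 held 72. The fewest were in cow 4 with 58, cow 10 with 61 and cow 6 with 64, and these 3 cows hold 51 of the 97 changes. An early array and a late array of different cows shared 44 to 71 states, with a median of 59.5 over 90 pairs. In cow 4 the late array of 1 other cow came closer to the early array than the cow's own, and in cow 6 those of 5 other cows came as close or closer. Seen from the late arrays, the early arrays of 8 other cows came as close as the own one or closer in cow 4 and those of 6 other cows in cow 10, and in the 8 remaining cows none did. Over the 15 probes with 4 or more arrays on the smaller side, a cow shared 13 to 15 states with itself and 4 to 13 with any other cow, and in each of the 10 cows its own later array was the closest.

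**Figure D3:**
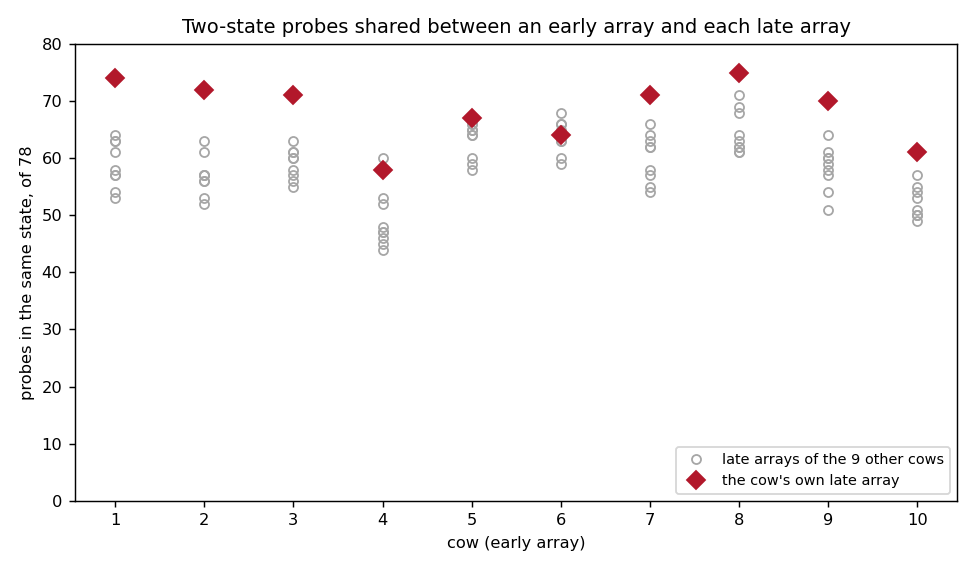
For the early array of each cow, the red diamond gives the number of the 78 probes in the same state on its own late array and the open circles give that number for the late arrays of the 9 other cows. The diamond lies above all circles in 8 cows, and among the circles in cows 4 and 6. The reverse comparison, from late arrays to early ones, is not drawn, and there cows 4 and 10 were the exceptions.

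A limma fit over all 36527 probes gave every probe a moderated F test for differences between the 10 cows beside the difference between periods, with Benjamini-Hochberg adjustment over all probes. It ran on the values that the rule used, less the spots flagged as outliers. A probe with a wide gap and each cow on the same side in both periods was all but certain to pass. The calls on the two-state probes therefore restate the states, and nothing is read from them. The fit called 33 of the 78 (42.3%), against 2.15% of all probes tested. These were the stable probes other than FCRLA (adjusted p = 0.0762 by limma) and the second probe of EXOC3L4 (adjusted p = 0.0386 by limma). With slide as a block ART5, PRSS2, TNFRSF13C and the second EXOC3L4 probe lost their call, and the last of these also lost it without any of 7 cows. Several probes set apart by a single cow lost their call when that cow was left out, such as PRSS2, KLK11 and KLK12 without cow 7 and TNFRSF13C without cow 3. Within the stable probes the largest difference between the early and late level of a cow had a median of 1.21 log2 units, and it was smaller than the measured gap in 31 of the 33.

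Between the periods no two-state probe passed the test. In the same limma fit with the cow as a block, 0 of the 78 passed an adjusted p of 0.05, against 0.81% of all probes tested, and 9 had an unadjusted p under 0.05, against 22.7% of all probes. These 9 were 7 of the 78 that were higher late, against 9.98% of all probes tested, and 2 of the 78 that were lower, against 12.7%. The median difference late minus early was 0.12 over the 78 and -0.01 over all probes tested. PRSS2, KLK12 and the first EXOC3L4 probe came closest, and all 3 are stable probes in which levels moved within a state. PRSS2 averaged -3.96 ± 1.88 early and -2.95 ± 1.42 late (SD, n = 10 each), a difference of 1.01 ± 0.25 (SE) that was positive in 9 of 10 cows, with an adjusted p of 0.0712 by limma. KLK12 was 0.66 ± 0.17 higher late in 9 of 10 cows (adjusted p = 0.0806 by limma). EXOC3L4 was 0.93 ± 0.26 higher late in 9 of 10 cows (adjusted p = 0.0914 by limma). None of the 3 passed in any of the other settings tried.

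The stable probes included those of genes for antigen presentation and killer cell recognition. BOLA-DQB1 ranged early from -9.01 over a median of 2.99 to 4.47, and late from -8.84 over 3.07 to 3.98. Its 4 low arrays, those of cows 2 and 4, were not well above background, and the 16 others were at 2.08 or more. The gap of 10.35 was the widest of the 78. The other probes that RefSeq names BOLA-DQB1 were well above background on all 20 arrays, those of cows 2 and 4 included. Their ranges were 2.14 to 2.48 log2 units. Cut at their own widest gap, they put 4 to 6 of the 20 arrays on the same sides as this probe. Those gaps were just 0.41 to 0.63, so the place of the cut carries little, and nothing is read from that count. The JSP.1 probes had gaps of 5.27 and 3.04, and in both the low arrays were those of cow 9.

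BTN3A2 is a butyrophilin, a family whose human members are needed for the response of a class of gamma delta T cells, and the array lists this copy as a cDNA with a frame shift. Its level ranged early from -9.53 over -8.88 to -1.25 and late from -9.20 over -8.52 to -1.33. Cows 2, 4, 7 and 8 were high in both periods, at -2.71 or above. The 12 other arrays lay at -8.33 or below, and none of them was well above background. ULBP3 ranged early from -7.88 over -6.51 to -0.37 and late from -8.37 over -7.27 to -0.81. Cows 3, 5, 6 and 7 were high, cows 1, 2, 4, 8, 9 and 10 low, and the sides did not overlap, at -1.43 or above and -5.76 or below.

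BTN3A2 and the expressed sequence CO872379 both lie on chromosome 23, at positions 26975220 and 27300948. Other probes that RefSeq names BOLA-DQB1 lie on the same chromosome at 26223358 to 26285358, and those named JSP.1 at 28598893 to 28601451. BTN3A2 and CO872379 therefore lie between class II and class I probes. Their states were nevertheless different: CO872379 was high in cows 1, 2, 9 and 10, and the 2 probes put 8 of 20 arrays on the same side. CO872379 was well above background on every array, from -5.07 to -3.13 on its low side and from 1.30 to 2.21 on its high side.

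The antiviral genes gave a stable and an unstable state side by side. OAS1X belongs to the oligoadenylate synthetases, which switch on RNase L when they meet double-stranded RNA. It ranged early from -9.18 over -3.92 to 1.41 and late from -9.19 over -4.94 to -2.25. Cows 4, 6 and 9 were not well above background in either period, at -8.83 or below, and the 7 other cows were at -5.53 or above. Within the high state the level of cow 1 was 1.41 early and -2.25 late. The two-state probe of OAS1Z, 15.9 kb away on chromosome 17, was high only on early array 1 and late array 7. Both arrays lay on the high side of OAS1X as well. Another OAS1Z probe stood at -3.84 on early array 1 but at -8.44 on late array 7, so it did not follow the split. NMI encodes an interferon-inducible partner of STAT proteins. Its probe was low in cows 2 and 5, at -8.07 to -6.73, and reached up to 0.13 in the 8 other cows, across a gap of 4.73.

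PRG3 is the array's name for a probe to which RefSeq gives only a locus number. Under that name PRG3 encodes a protein of eosinophil granules. Its probe was high in cows 7, 8 and 10 in both periods, at -1.85 to -0.07, and below -8.75 or at it elsewhere, where it was not well above background. The early values ran from -9.51 over -8.95 to -1.59 and the late values from -9.31 over -8.79 to -0.07. A probe of a PRG3-like locus that differs at 10 of the 52 bases it shares was detected on 17 arrays.

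Several stable probes belong to housekeeping or signalling genes. SS18 is a subunit of the BAF chromatin remodelling complex. Its two-state probe ranged early from -7.13 over -0.14 to 1.24 and late from -6.31 over -0.08 to 1.21, with cows 1, 3 and 5 low on both arrays, at -5.72 or below. COX7C is a subunit of cytochrome c oxidase, the last enzyme of the respiratory chain. Its probe ranged early from -0.03 over 4.05 to 4.60 and late from 0.13 over 4.15 to 4.75, with cows 1 and 2 low. Both probes were well above background on all 20 arrays, so their low side is a measured level and not a bound. KIF3A, a kinesin motor subunit in the array's description of XM_615257, was low in cows 3 and 7, at -5.23 to -4.70 against -0.36 to 1.37. IGFLR1, a receptor of the IGF-like family, was low in cow 1 alone, at -5.20 and -5.09, with all other arrays between -0.29 and 1.63.

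**Figure D4:**
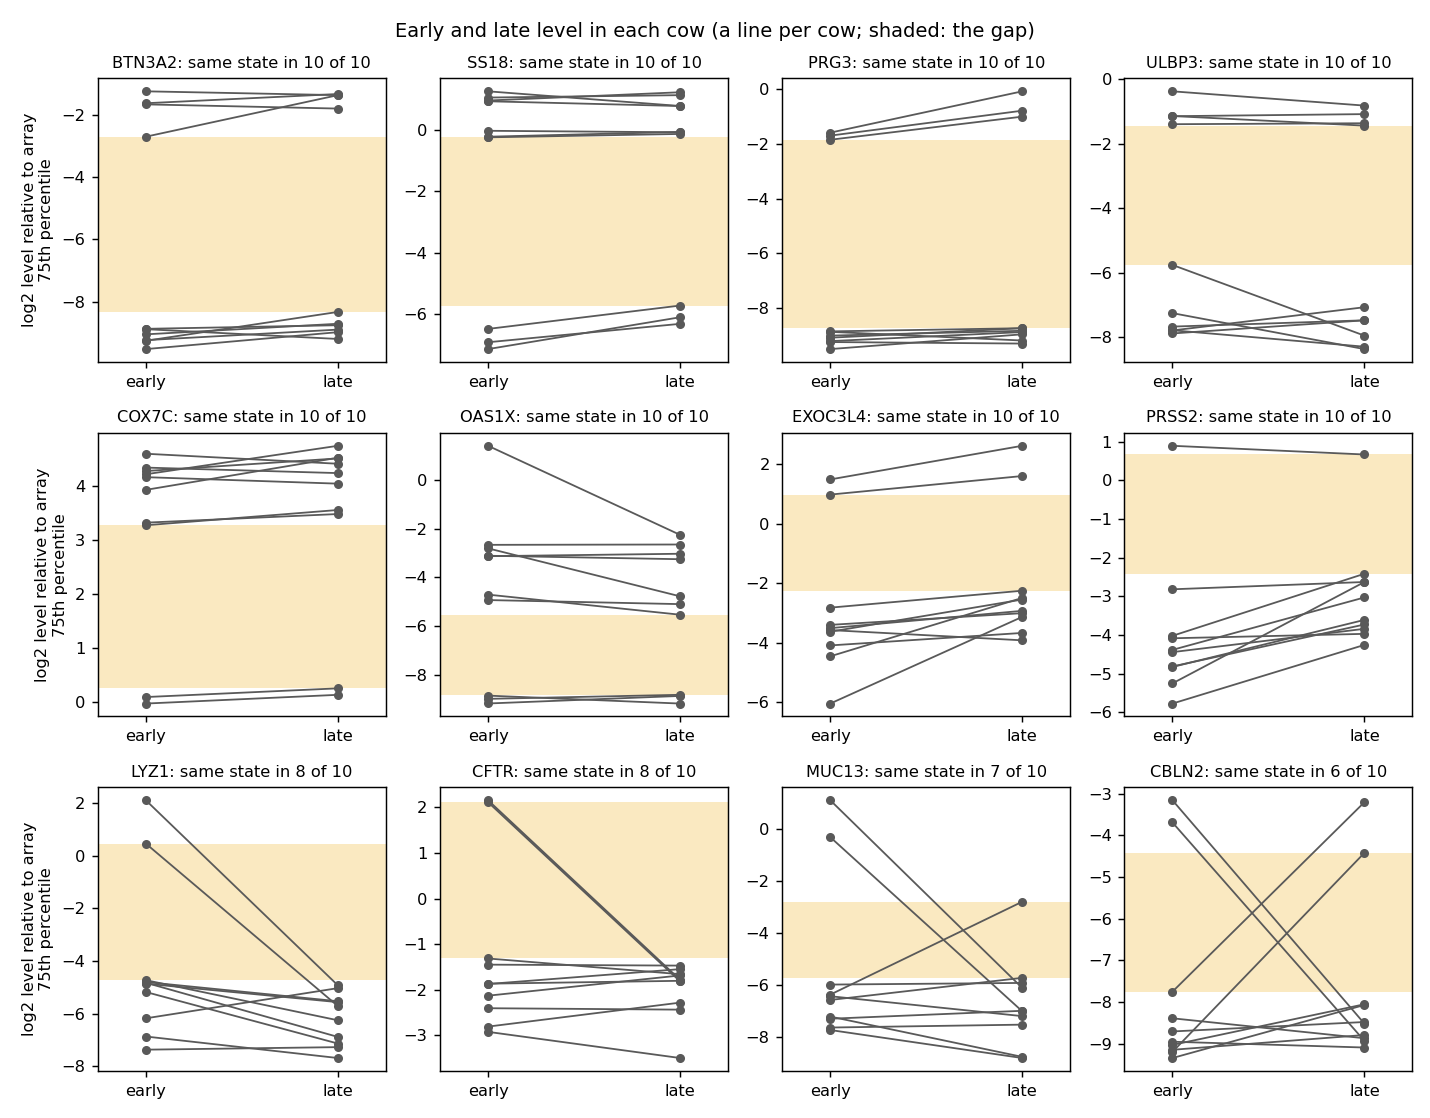
Each panel is the first listed probe of a gene, with a line for each of the 10 cows from its early to its late log2 level and the gap shaded. In the first 8 panels no line crosses the gap. In LYZ1 and CFTR 2 cows fall from the high to the low side, in MUC13 2 fall and 1 rises, and in CBLN2 2 fall and 2 rise.

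Cow 9 held the largest group of stable probes, 6 in all. Folate receptor alpha binds folate at the cell surface and brings it into the cell. A transcript that the array describes as its precursor has a pair of two-state probes on chromosome 15, at 51284464 and 51285282. The first ranged early from -6.03 over 2.63 to 4.39 and late from -5.51 over 2.97 to 4.18, and the second early from -3.99 over 4.11 to 5.94 and late from -3.67 over 4.57 to 5.57. In both the lowest array of each period was that of cow 9, and both were well above background there. A probe named FOLR1 itself, 12.4 and 13.2 kb away, was also low in cow 9, at -7.16 and -6.81 against -4.26 or above. The 3 probes split all 20 arrays alike, as did the JSP.1 pair, while TPRG1L was high in cow 9 alone, at 0.02 in both periods against -2.74 or below. The early biopsy of cow 9 had the lowest epithelial marker level of the 10 early arrays (0.22, against 1.19 to 1.75 in the others) and the highest smooth muscle level (3.51). Its late biopsy, at 1.42 and 1.96, lay inside the range of the other late arrays. The part of these cells in the 6 states was not tested.

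Cow 3 was high alone in 4 stable probes: FCRLA, an Fc receptor-like protein of B cells, TNFRSF13C, the receptor for the B cell survival factor BAFF, ZBTB32, a transcriptional repressor of lymphocytes, and ART5, an ADP-ribosyltransferase. TNFRSF13C stood at 0.20 early and 0.56 late in cow 3 and between -5.33 and -2.57 on the 18 other arrays. FCRLA stood at -3.83 and -2.68 against -6.82 or below, and ZBTB32 at -4.04 and -4.52 against -7.40 or below. A second ZBTB32 probe did not follow this split. The 4 B cell and plasma cell markers looked for, all detected, averaged -0.30 early and -0.40 late in cow 3 and -3.43 to -1.22 on the 18 other arrays. Of the 4, MS4A1 (-0.93 early and 0.12 late) and CD79A (-0.52 and -0.41) were highest in cow 3, at -3.38 or below and -1.51 or below elsewhere. The plasma cell genes JCHAIN (3.15 and 1.93) and MZB1 (-2.93 and -3.25) were not, reaching 4.76 and -2.75 elsewhere. Late array 3 was also the highest late array for the markers of macrophages (-1.01), T and natural killer cells (0.42), neutrophils (-2.70) and red cells (-2.98). The part of these cells in the 4 states was not tested. ART5 rose from -1.90 to 1.37 in cow 3 and was at -4.46 or below elsewhere, and the probe of its near-identical neighbour LOC618664 split all 20 arrays in the same way. A hybridization of either transcript to both probes cannot be told apart from a joint change.

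Cow 7 was high alone in 3 serine protease probes. PRSS2, a trypsin, stood at 0.89 early and 0.66 late in cow 7 and between -5.78 and -2.42 elsewhere. KLK12, a kallikrein-related peptidase, stood at 0.35 and 0.34 in cow 7 and between -4.39 and -2.23 elsewhere. KLK11, 5.53 kb from it on chromosome 18, was above background in cow 7 only, at -5.67 and -6.02. These were the only two-state probes among the 198 tested in the list of proteases and their inhibitors (1.52%, against 0.214% of all probes). In that list 9 probes (4.55%) differed between cows, against 2.15% of all probes. Of these 9, 3 are the two-state probes themselves, whose calls restate their states. In the same list 1 probe rose and 6 fell late against early (3.54%, against 0.81%).

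Other states set a few cows apart. CPB2, a plasma carboxypeptidase that slows clot breakdown, was above background in cows 2, 3, 6 and 7 in both periods. SETD9 was low in cow 8. The two-state probe of C19H17ORF48 was above background in cow 10 alone, while another of its probes was detected on all 20 arrays. A histone H2B-like transcript was not well above background in cow 10 alone. The uncharacterized LOC790858 was at 1.50 and 0.67 in cow 1 and not well above background in any other cow. LOC781494, described as similar to a myeloid differentiation marker, was not well above background in cow 1 and was detected in all others. LOC790858, LOC781494, CPB2, KIF3A and the H2B-like transcript were chosen after their values were seen.

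The 45 probes in which some cow changed state were mostly dim. In 32 of them only 2 or 3 arrays were well above background, and in 40 the smaller side was the high one. Only 4 were well above background on all 20 arrays. The largest group among them, 8 probes, set early array 4 and early array 10 apart from the other 18. LYZ1, a lysozyme that cuts bacterial cell walls, stood at 2.10 and 0.45 on these 2 arrays and at -4.73 or below elsewhere. On the late arrays of the same cows it stood at -4.93 and -5.71. CFTR, the chloride and bicarbonate channel of epithelia, stood at 2.12 and 2.16 on them and between -3.50 and -1.31 elsewhere. MSTN, which encodes myostatin, an inhibitor of muscle growth, stood at -1.39 and -3.18 against -6.39 or below. The two-state probe of NPNT, a matrix ligand of integrins, was above background on these 2 arrays alone. Another NPNT probe was well above background on all 20 arrays. PLD5 was the only probe of the group that was low on these 2 arrays. CO881657, an expressed sequence 106 kb from CFTR, had a gap of 5.19.

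The group had neighbours in 2 further partitions. MUC13 is a mucin anchored in the membrane of epithelial cells. Its probe was high on early arrays 4 and 10 and on late array 6, at 1.11, -0.32 and -2.80 against -5.73 or below. A probe of a MUC13 transcript and a further MUC13-like probe split all 20 arrays in the same way. The two-state probe of SLC26A3, a chloride and bicarbonate exchanger, was not well above background on early array 4 and late array 6. It was detected on the 18 others. The two-state probes of UGT2A1, which conjugates glucuronic acid, and of a second mucin transcript were above background on those same 2 arrays alone. Other probes of that mucin transcript were well above background on 5 and 7 arrays. The 4 neutrophil markers averaged -1.78 on early array 4 and -3.87 on early array 10, against -5.19 to -4.12 on the other early arrays. The 7 epithelial markers were at 1.75 and 1.74 on these 2, the 2 highest early values. They were at 2.10 and 2.13 on the late arrays of the same cows. There the two-state probes of LYZ1 and CFTR were low, while a second LYZ1 probe had its highest late values. Early array 4 was also the highest early array for the 9 stroma markers (3.14) and the 4 macrophage markers (-0.47). The part of these cells in the group was not tested. Without the 2 arrays the same rule found 67 probes, 36 of them stable in every cow that kept both arrays.

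CBLN2, which encodes a secreted organizer of synapses, changed most. Its first probe ranged early from -9.34 over -8.83 to -3.16 and late from -9.09 over -8.50 to -3.20. Its second, 622 bases away on chromosome 24, ranged early from -6.30 over -4.95 to 1.14 and late from -6.69 over -4.48 to 1.36. Both were high on early arrays 4 and 9 and on late arrays 5 and 6, so 4 cows were high on 1 occasion each and no cow on both. Another CBLN2 probe with a narrower gap split the arrays the same way.

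Many of the remaining probes lit up on 2 or 3 unrelated arrays. The two-state probe of CYLC2, of the sperm head skeleton, was above background on early array 6 and late array 7 alone, at -3.83 and -2.77. Those of the olfactory receptors OR1E1I, OR5W27 and OR7A122, of NXF3, an RNA export factor, and of PHF21B were above background on 2 or 3 arrays each. No cow was high in both periods in any of these 6 probes. Olfactory receptors made up 5 of the 78 probes (6.41%), against 0.411% of all probes tested, and none of the 5 was stable. A dim probe above background on only 2 or 3 arrays passes the filter through the same arrays that make its gap. The share was not tested, and nothing is read from it. Of 104 probes in the list of chemosensory receptors 3 differed between cows (2.88%, against 2.15% of all probes) and 3 rose late against early (2.88%, against 0.81%), and none of these was a two-state probe. The xenobiotic enzymes CYP3A76 and CYP2C87 changed state in 1 cow each: CYP3A76 was high on both arrays of cow 1 and on early array 4, and CYP2C87 was not well above background on both arrays of cow 1 and on late array 10. Of the 272 probes in their list 6 differed between cows (2.21%, against 2.15% of all probes), and none was called late against early by limma.

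Other probes of the same gene show how far a state reached along the transcript. Of the 78 probes 38 had another detected probe under the same gene name or the same array accession, and for 20 of them (52.6%) at least 1 such probe, cut at its own widest gap, put 19 or more arrays on the same sides. The same held for 33.3% of the 24684 probes tested that had another detected probe under the same gene name. Among stable probes it held in 10 of 20 and among the others in 10 of 18.

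In SS18 and COX7C the state did not reach the neighbouring probe. A second SS18 probe, 125 bases further on, varied by 0.63 log2 units over the 20 arrays, against 8.37 for the two-state probe. A second COX7C probe, 18 bases away, varied by 0.70 against 4.78. In TPRG1L and C19H17ORF48 a probe 617 and 1749 bases away also failed to follow the split, with ranges of 1.68 and 0.61. In ZBTB32 a probe 744 bases away, detected on all 20 arrays, had a range of 1.78. Its highest value was -4.61 on early array 3, but late array 3, at -5.07, lay below late array 4, at -4.73. The other probes of NMI, with ranges of 1.49 and 1.16, did not follow its split either, but they are placed 181023 and 184546 bases from the two-state probe. In LYZ1 a second probe close by was detected on all arrays. It was at 2.58 on early array 4, 0.44 on early array 10 and 1.65 on early array 5, so that it did not set the first 2 apart. Its highest late values were those of cows 4 and 10, at 2.23 in cow 4 and above that in cow 10. The two-state probe was low on both of these late arrays.

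Another ULBP3 probe, 733 bases away, split the 20 arrays like the two-state probe, with a range of 3.29. The array lists 3 more probes with it that RefSeq names ULBP13 or LOC100126815, and these lie 2589541 to 2590380 bases away on the same chromosome. They also split all 20 arrays alike, with ranges of 3.38 to 4.09. A split of all 20 arrays like that of the two-state probe was also found for another probe of MSTN, NPNT, TNFRSF13C, SLC26A3 and CYP3A76 and for 2 probes of LOC781494, and in SETD9 and CPB2 another probe put 19 arrays on the same sides. The EXOC3L4 probes lie 30 bases apart and both had 2 states, with different arrays set apart. The first was high in cows 1 and 5, and the second was low on both arrays of cow 7 and on early array 4.

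**Figure D5:**
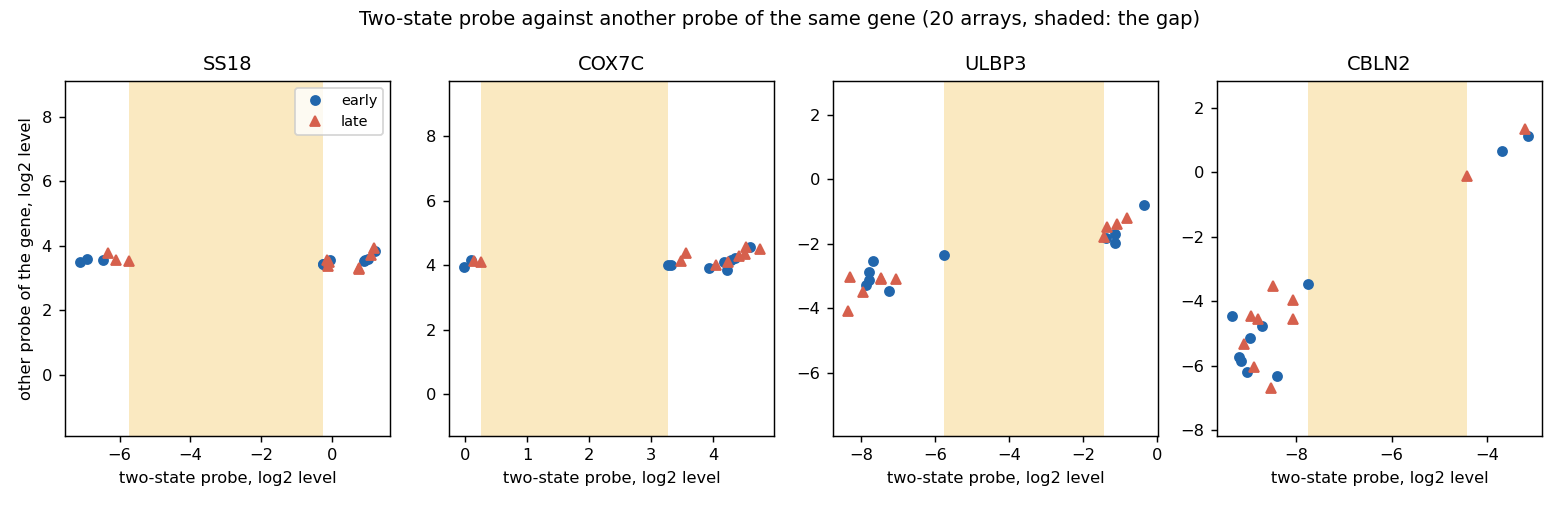
For 4 genes the log2 level of the two-state probe (horizontal, gap shaded) is set against that of the nearest other probe of the gene (vertical, the same span of 11 log2 units in each panel), with 10 early arrays as circles and 10 late arrays as triangles. The other probes of SS18 and COX7C stay level across the gap, while those of ULBP3 and CBLN2 are higher on the right of it.

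Some neighbouring genes shared a state, and in others different cows stood apart. FOLR1 with the folate receptor alpha transcript, CO881657 with CFTR, KLK11 with KLK12, and the MUC13 probes each split all 20 arrays alike. On chromosome 18 the two-state probe of ZBTB32 was high in cow 3 alone and that of IGFLR1, 22.6 kb away, was low in cow 1 alone. On chromosome 15 ART5 was high in cow 3 alone and FOLR1, 305 kb away, was low in cow 9 alone. Of the 78 probes 8 (10.3%) had no position on the build, against 4.17% of all probes tested, and 29 had no RefSeq name. The median GC content was 41.7% in the two-state probes and 45% in all probes tested.

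For the remaining lists the share of two-state probes is given beside the 0.214% of all probes tested, and these shares were not tested. Among lymphocyte and natural killer receptors BTN3A2, FCRLA and ULBP3 were two-state of 122 probes tested (2.46%), all 3 stable. Of that list 10 differed between cows (8.20%, against 2.15% of all probes), and 2 of these 10 are two-state probes, whose calls restate their states. In the same list 5 fell and 0 rose late against early by limma (4.10%, against 0.81%), none of these 5 two-state. The antimicrobial and mucosal list held LYZ1, MUC13 and BPIFA2B of 91 probes (3.30%), none stable. The interferon-induced list held OAS1X and OAS1Z of 83 (2.41%). SLC26A3 was the only one of 701 solute carrier and channel probes (0.143%). The immunoglobulin and T cell receptor list (80 probes), the zinc finger and ribosomal list (854) and the trophoblast list (55) held none. At a share of 0.214% lists of 80 or 55 probes are likely to hold none.

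At the limit the choice was narrow. Just inside it lay BPIFA2B with a gap of 2.56, FOLR1 with 2.54, PHF21B with 2.53 and CYP2C87 with 2.52. Just outside lay IL13 with 2.49, a second MSTN probe with 2.48, MS4A1 with 2.46 and OR4F73 with 2.45. MS4A1, the B cell antigen CD20, was high in cow 3 alone, and the second MSTN probe on early arrays 4 and 10.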

How the data were processed

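Total RNA of each biopsy was hybridized to a one-colour Agilent bovine array with 60-base probes and read with Agilent Feature Extraction 10.5.1.1, per the file headers and the submitters' processing notes. The deposited intensity is the background-subtracted processed signal. It was scaled here to the 75th percentile of each array and put on the log2 scale, with the spots of a probe averaged. On each array 71.8% to 80.2% of 43803 spots were well above background and none was saturated. Precision is set by how many arrays there are. The deposited log2 value table, whose column medians run from -0.15 to 0.05, correlated at 0.999954 or more with these levels per array and was used as an alternative. Its direction and scale match, and its centring is the same percentile to within 0.00266.

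Samples were grouped and paired by the cow number in their titles. For late samples the source-name field gives cow numbers that differ from the titles. Early and late deviations of a cow from the group means correlated from -0.09 to 0.69 over 36449 other probes, and in 7 of 10 cows the cow's own late array correlated best. Levels were fitted with limma 3.58.1 in R 4.3.3 with period and cow as terms, leaving out spots flagged as outliers, and adjusted by Benjamini-Hochberg over all probes. Biopsies of a cow are separate samples, so the spread includes sampling of the tissue. The 20 arrays lay on 5 slides scanned on 1 day. Slides 1 and 2 held early arrays only and slides 4 and 5 late arrays only, so period and slide can hardly be told apart. Slide 3 held early arrays of cows 9 and 10 with late arrays of cows 1 and 2, and no cow had both arrays on a slide. The smaller side lay on 1 slide in 4 of the 78 probes, none of them stable.

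Genes are named through RefSeq (ARS-UCD2.0) accessions or symbols, and by the array's own name for 29 of the 78. Where RefSeq gives a locus number and the array a symbol, as for PRG3 and LYZ1, the array's symbol is used. The members and gene lists were chosen with earlier results of these data known. Names in the text follow a rule on gap width, stability, shared partitions, lists, neighbours and the limit of 2.5. Lists are symbol prefixes and can take in unrelated genes. The scripts were tested on simulated data. Alternatives covered background correction, scaling, filters, flags, blocks, the gap, the smaller side and each cow left out.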

Additional observations from a re-analysis of the deposited data

Results flagged for a closer look

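Within each period, the highest or lowest array of a probe was marked when its distance to the nearest of the other 9 took more of the whole range of the 10 arrays than Dixon's critical value at 95% allows. Of 96 such groups of 10 for the named probes 52 were marked. Chance marks about 1 in 20 groups, but these probes were chosen for wide gaps, so the number says nothing beyond the choice.

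In cow 9 the lowest array stood apart for both probes of the folate receptor alpha transcript, by 0.753 of the range early and 0.747 late for the first and by 0.740 early and 0.773 late for the second. The JSP.1 probes were also lowest there, by 0.550 early and 0.571 late for the first and by 0.582 early and 0.649 late for the second. FOLR1 was lowest there early by 0.505. TPRG1L was highest in cow 9, by 0.764 early and 0.729 late.

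In cow 3 the highest array stood apart for FCRLA by 0.578 early and 0.670 late, for ZBTB32 by 0.753 and 0.617, for TNFRSF13C by 0.568 and 0.634, and for ART5 by 0.699 and 0.837. In cow 7 it did so for PRSS2 by 0.557 early and 0.626 late, for KLK11 by 0.813 and 0.827, and for KLK12 by 0.640 and 0.673. C19H17ORF48 was highest in cow 10 by 0.787 early and 0.888 late. IGFLR1 was lowest in cow 1 by 0.781 early and 0.715 late, and SETD9 was lowest in cow 8 by 0.594 early and 0.727 late.

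In the probes that changed state the marked arrays came from different cows. CYLC2 was highest early in cow 6 by 0.885 and late in cow 7 by 0.908. OR1E1I was highest early in cow 10 by 0.863 and late in cow 9 by 0.836. OR5W27 was highest early in cow 5 by 0.844 and late in cow 1 by 0.854. BPIFA2B was highest early in cow 2 by 0.805 and late in cow 6 by 0.860. OAS1Z was highest early in cow 1 by 0.574 and late in cow 7 by 0.676. UGT2A1 was highest early in cow 4 by 0.534 and late in cow 6 by 0.550, and SLC26A3 was lowest on the same arrays by 0.501 and 0.546. MUC13 and the MUC13 transcript were highest late in cow 6 by 0.487 and 0.817. CYP3A76 was highest late in cow 1 by 0.820 and OR7A122 late in cow 5 by 0.749. NXF3 was highest early in cow 3 by 0.824 and PHF21B early in cow 10 by 0.630. CFTR was lowest late in cow 2 by 0.524, a position inside its low state.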

How the results depend on the processing

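The number of two-state probes followed the settings that define it. Against 78 probes with 33 stable, a gap of 2 gave 176 with 62 stable, a gap of 3 gave 38 with 22 stable, and a gap of 4 gave 19 with 16 stable and 96.8% of pairs in the same state. Asking for 3 arrays on each side gave 26 with 13 stable, asking for 8 detected arrays gave 38 with 27 stable, and normexp background correction, which raises dim signals, gave 22 with 17 stable. With 1 cow left out at a time the number ran from 71 to 83, the stable ones from 31 to 37 and the share of pairs from 85.5% to 88.6%. Without the early arrays of cows 4 and 10 there were 67 with 36 stable, and without the renamed histocompatibility probes 75 with 30 stable, both settings chosen after seeing the data.

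Late against early, 0 two-state probes passed in every setting run. All probes past the threshold numbered 296, and 530 with quantile scaling, 135 with no filter, 188 with no replicate block, 1312 with the replicate block as a random effect, 66 with slide as a random block, 0 with slide as a block, 43 without cows 4 and 10 and 53 to 242 with 1 cow left out. Pairing by cow changed no other call on the two-state probes, and the difference between cows has no fit without it.

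Between cows, 29 to 35 two-state probes passed with 1 cow left out and 29 with slide as a block. All probes passing numbered 785, and 141 with slide as a block, 1589 without cows 4 and 10 and 382 to 1986 with 1 cow left out. Of the 33 called probes 17 were called in all 21 other settings in which they were tested. ART5, PRSS2, TNFRSF13C and the second EXOC3L4 probe lost the call with slide as a block, and KLK11 with normexp. Of probes set apart by 1 cow, ART5, TNFRSF13C and ZBTB32 lost it without cow 3, PRSS2, KLK11 and KLK12 without cow 7, TPRG1L and the folate receptor alpha pair without cow 9, LOC781494 and LOC790858 without cow 1, SETD9 without cow 8, the insulin receptor transcript without cow 2, and C19H17ORF48 and the H2B-like transcript without cow 10; those cows are the ones that differ.

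Signal limits these states. In 52 of the 78 probes no low array was well above background, so the low side is a bound, and 31 had just 2 arrays well above background, 5 of them stable. The probe ENSBTAT00000055134 owes its gap to an outlier-flagged spot, without which it is 0.286.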
